A study of Mus musculus with 9 samples.

Results

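Kidneys of diabetic mice given dehydrozingerone were compared, gene by gene, with kidneys of diabetic mice given vehicle. The comparison takes 6 of the 9 whole-kidney messenger RNA libraries of the series, 3 labelled HFD-STZ+DH and 3 labelled HFD-STZ+Veh, here called DHZ and vehicle. Mice of both groups ate a high-fat diet (HFD, 49.0% of calories from fat) from 6 weeks of age and were injected with streptozotocin (STZ, a toxin of insulin-producing beta cells) at 30 mg/kg on diet days 60 and 63. Blood glucose was tested on day 65. DHZ libraries come from such mice dosed by mouth with dehydrozingerone, a phenolic relative of curcumin found in ginger, at 50 mg/kg for 2 weeks. The other 3 libraries (NCD) are of mice on a control diet with 11.32% of calories from fat, and their values stand beside some genes as a reference level. The labels used here name no strain or sex. Nothing says that each library is a separate animal, so p-values measure the spread between these libraries only. The treatment field of the labels names the compound for all 9 libraries, so groups were taken from the titles. Each library has a batch date of its own and the dates run group by group. Treatment and batch therefore cannot be told apart.

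In diabetic nephropathy high glucose damages the filter of the glomerulus, where podocytes wrap the capillaries and hold the slit diaphragm, and loads the proximal tubule, which reabsorbs glucose, amino acids and filtered protein. Filtered protein taken up by the tubule is broken down in lysosomes, and both cell types rely on mitochondria that burn fatty acids and other fuels. Dehydrozingerone is known mainly as an antioxidant phenol, for which the NRF2 pathway of antioxidant genes and the NF-kB pathway of inflammatory genes are common readouts.

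The 6 libraries differed in more than their treatment. Nuclear protein-coding genes held 3.94, 2.13 and 6.52 M (mega) counts in the vehicle libraries and 7.63, 15.2 and 7.66 M in the DHZ libraries. Mitochondrially encoded genes took 45.0%, 60.4% and 52.4% of all counts with vehicle and 46.3%, 43.1% and 46.0% with DHZ. Among the counts left after removal of mitochondrial genes and of unprocessed pseudogenes, the nuclear-retained RNA Malat1 alone took 11.9%, 23.7% and 11.9% with vehicle and 4.37%, 3.49% and 5.79% with DHZ. All non-coding genes together took 17.2%, 28.9% and 16.3% against 8.16%, 7.56% and 9.68%. The groups overlapped in the mitochondrial share (exact permutation p = 0.3, two-sided) and did not overlap in the other measures, for which the exact permutation p was 0.1, the smallest that 3 against 3 allows. In the NCD libraries Malat1 took 14.7%, 6.76% and 5.99%. Vehicle replicate 2 stood apart, with the fewest coding counts and the highest Malat1 share. Xist RNA marked vehicle replicate 1 and DHZ replicates 1 and 2, and Y-linked RNA the other 3 libraries, so each group mixed the sexes. The part of these differences in the results below was not tested, except where a fit with a term for them is named.

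**Figure D1:**
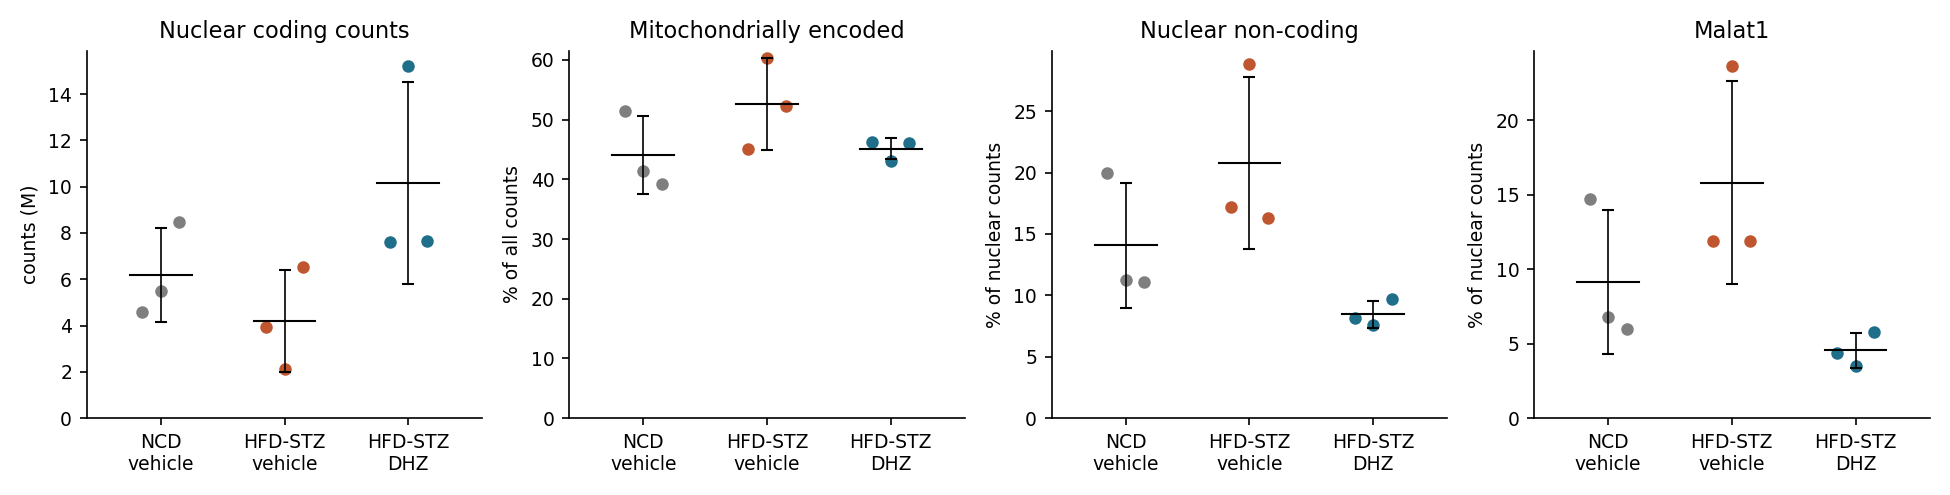
Library measures by group: nuclear protein-coding counts in M, the percent of all counts from mitochondrially encoded genes, and the percents of the remaining nuclear counts from non-coding genes and from Malat1. Points are libraries, long bars means and error bars SD (n = 3); the 3 DHZ libraries lie below all 3 vehicle libraries for Malat1, at 3.49% to 5.79% against 11.9% to 23.7%.

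The 2 groups differed in many genes. Of 17179 genes tested by edgeR's quasi-likelihood test with Benjamini-Hochberg adjustment, 1726 were called higher with DHZ (10.0%) and 2070 lower (12.0%) at an adjusted p below 0.05. Among 13476 nuclear protein-coding genes the shares were 11.5% higher and 8.93% lower. Among the 1580 of these with a mean of at least 5 on the log2 CPM scale (CPM are counts per M counts of scaled library size) they were 9.56% and 24.5%, so that abundant coding genes were called lower more often than higher. The 3 DHZ values lay above all 3 vehicle values in 20.9% of the genes tested and below all of them in 19.0%. Counts of called genes in the lists below are to be read beside the 11.5% and 8.93% of coding genes. The median log2 fold change (log2FC, DHZ minus vehicle) was 0.04 over all genes and -0.14 over the abundant coding genes. With a covariate for the Malat1 share, which does not overlap between the groups, 3 genes were called (Apoc3, Cdh11 and Gm48114) and none of the members named below. Under scaling by total count alone, without a correction for composition, the median of all genes moved to 0.81, and 832 genes were called higher and 56 lower (93.7% higher, against 45.5%). Without DHZ replicate 1 the calls numbered 1149, without DHZ replicate 2 they numbered 1302, and 406 higher and 556 lower genes were called in every fit that left out 1 of the 9 libraries.

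**Figure D2:**
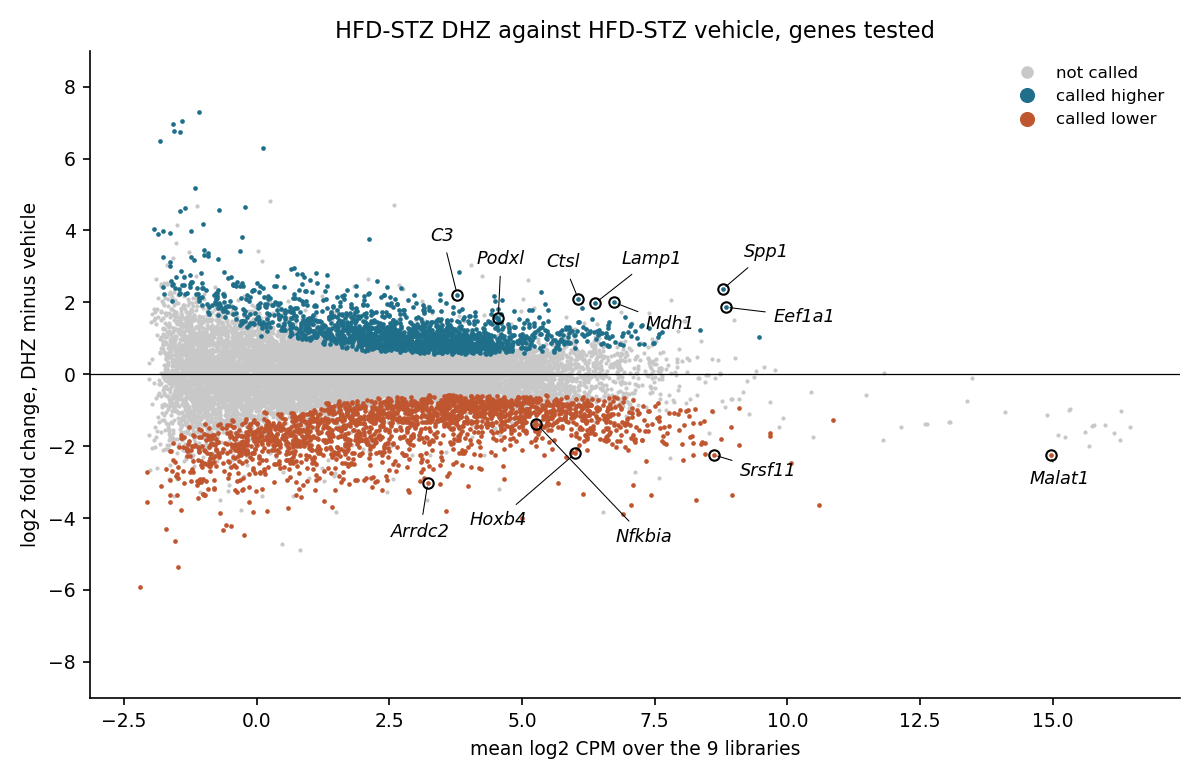
Log2 fold change of DHZ minus vehicle against mean log2 CPM over the 9 libraries, for the 17179 genes tested. Points are genes, coloured where called at an adjusted p below 0.05, and 12 genes of the text are circled; calls on the right side of the plot are mostly lower with DHZ, as the 24.5% of abundant coding genes show.

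In the glomerulus, RNA of several podocyte genes was higher with DHZ. Podxl, which encodes the sialoprotein podocalyxin of the foot process surface, was at 15.3, 6.34 and 12.5 CPM with vehicle and 36.8, 37.3 and 28.6 CPM with DHZ (log2FC 1.57, SE 0.30, adjusted p = 0.00658). Clic5, whose protein ties podocalyxin to actin, was called as well (1.53), as was Ptpro (1.07), a phosphatase of the foot process. Other podocyte genes went the opposite way. Magi2, a scaffold of the slit diaphragm, was at 35.0, 34.0 and 21.1 CPM with vehicle and 13.2, 10.1 and 15.7 CPM with DHZ (log2FC -1.21, SE 0.25, adjusted p = 0.00896). Actn4, an actin crosslinker that many kidney cells express, fell from 188 ± 31.4 CPM to 89.8 ± 12.8 CPM (SD, n = 3; log2FC -1.07, SE 0.24, adjusted p = 0.0120). Dach1 also fell (-1.02), and Cd2ap, with a log2FC of 0.20 and an adjusted p of 0.565, was not called. The podocyte list held 5 higher and 3 lower genes among 15. Its median log2FC was 0.20 (0.05 without vehicle replicate 2 and 0.03 without vehicle replicate 3). Its summed level was 339 to 381 CPM with vehicle and 304 to 311 CPM with DHZ. Of these sums Actn4 alone held 197, 154 and 215 CPM with vehicle and 75.1, 96.2 and 98.1 CPM with DHZ. The lower sums with DHZ thus rest on Actn4 and do not show lower podocyte RNA. In fits that left out 1 library, the 5 higher genes still called numbered 3 without vehicle replicates 1 or 3 or DHZ replicates 1, 2 or 3. The 3 lower ones numbered 1 without DHZ replicate 1. Ptpro (vehicle replicates 1 or 3 or DHZ replicates 1, 2 or 3), Actn4 (DHZ replicate 1) and Dach1 (any but NCD replicates 1 and 2 and vehicle replicate 3) lost their calls when the libraries in brackets were left out, each on its own (any but means each of the 9 except those named). In bulk RNA, more cells of a type and more RNA per cell cannot be told apart.

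Of 24 genes for the glomerular basement membrane and its integrins, 5 were higher (20.8%, beside 11.5% of coding genes) and none lower (2 with DESeq2, 0 with limma-voom, 2 at an unadjusted p below 0.05). Nid1, the gene of nidogen, which links laminin to collagen IV, was at 4.50, 1.48 and 2.45 CPM with vehicle and 12.7, 8.81 and 12.9 CPM with DHZ (log2FC 1.97, SE 0.40, adjusted p = 0.00835). Itgb1, the beta chain of the integrin that anchors the podocyte, was at 45.4, 44.8 and 39.2 CPM with vehicle and 99.7, 92.5 and 86.0 CPM with DHZ (log2FC 1.11, SE 0.23, adjusted p = 0.00910). Its tetraspanin partner Cd151 rose from 7.65 ± 0.438 CPM to 15.8 ± 0.584 CPM (SD, n = 3). None of the 3 overlapped between the groups, which for Nid1 was a condition of its choice. Itgav, an integrin alpha chain, rose as well (1.21), a call lost without DHZ replicate 1. The collagen genes of the mature membrane did not pass the test. The log2FC was -0.49 for Col4a3 (adjusted p = 0.122) and -0.75 for Col4a4 (adjusted p = 0.0550). Scaled by total count alone, Col4a3 had a positive estimate of 0.19. Of the list's log2FC the median was 0.06, and it ran from -0.19 without DHZ replicate 3 to 0.29 without vehicle replicate 1. Without DHZ replicate 1 the higher genes numbered 3. Among 14 endothelial markers there were none higher (0 with DESeq2 or limma-voom, 1 at an unadjusted p below 0.05) and none lower (1 with DESeq2, 0 with limma-voom, 1 at an unadjusted p below 0.05).

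**Figure D3:**
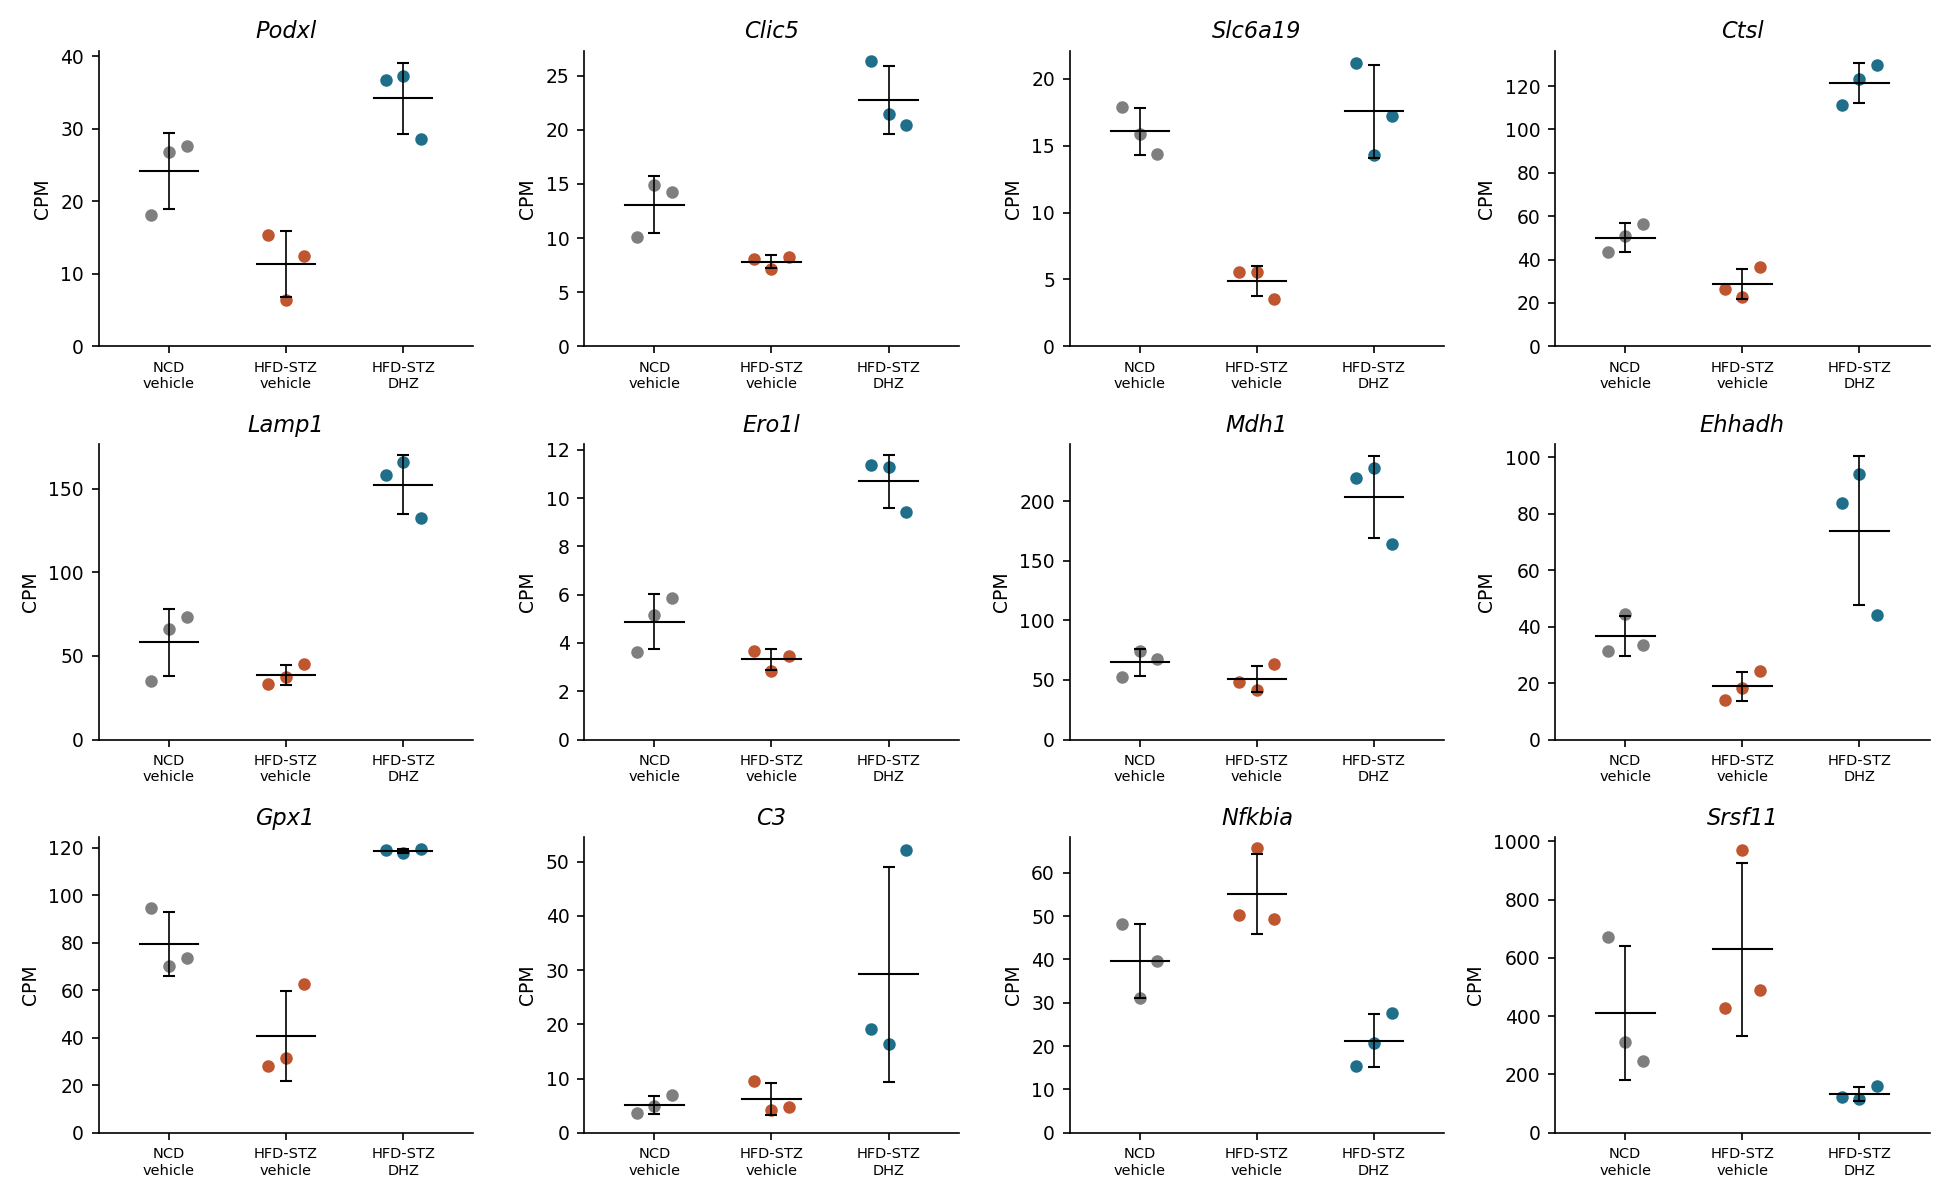
Levels of 12 genes in all 9 libraries, in CPM on linear axes from 0, with points for libraries, long bars for means and error bars for SD (n = 3). In every panel the DHZ and vehicle points do not overlap, which for Ctsl, Lamp1, Mdh1, Ehhadh, C3 and Srsf11 was a condition of their choice. Podxl runs from 6.34 to 15.3 CPM with vehicle and from 28.6 to 37.3 CPM with DHZ. Nfkbia and Srsf11 are the panels where DHZ is the lower group.

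Markers of the tubule were counted by segment. In the early proximal tubule 5 of 12 markers were higher and 1 lower (41.7% higher). Slc6a19, the gene of the apical carrier of neutral amino acids B0AT1, was at 5.58, 5.53 and 3.57 CPM with vehicle and 21.2, 14.3 and 17.2 CPM with DHZ (log2FC 1.86, SE 0.24, adjusted p = 0.00309), with NCD libraries at 17.9, 15.9 and 14.4 CPM. Slc7a7, a basolateral carrier of dibasic amino acids, was at 5.58, 8.23 and 5.70 CPM with vehicle and 12.7, 15.6 and 14.5 CPM with DHZ (log2FC 1.15, SE 0.23, adjusted p = 0.00720). Both genes were low in all 3 vehicle libraries, without overlap. Slc5a2, which encodes the glucose carrier SGLT2, rose from 15.9 ± 5.09 CPM to 31.6 ± 2.55 CPM (SD, n = 3; log2FC 0.98, SE 0.25, adjusted p = 0.0194), and Gatm, the first enzyme of creatine synthesis, by a log2FC of 0.97. Slc4a4, the basolateral bicarbonate carrier, was at 269, 377 and 361 CPM with vehicle and 150.2, 159 and 188 CPM with DHZ (log2FC -1.02, SE 0.33, adjusted p = 0.0432), and the endocytic receptor gene Lrp2 was not called (0.49, adjusted p = 0.241). The 5 higher genes still called numbered 2 without DHZ replicates 1 or 2. Gatm (DHZ replicates 1 or 2), Slc5a2 (DHZ replicates 1 or 2) and Slc4a4 (any but NCD replicates 1 and 3 and vehicle replicate 1) lost their calls when the libraries in brackets were left out. The straight proximal segment had 1 higher gene among 12 (Slc3a1, of an amino acid carrier, 1.26, lost in 6 of the 9 leave-one-out fits) and none lower (0 with DESeq2 or limma-voom, 0 at an unadjusted p below 0.05). Its summed level, which includes sex-dependent genes, ranged from 2008 to 13094 CPM within the vehicle group alone.

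Distal markers fell more often than they rose. In the list for the distal convoluted and connecting tubule 5 of 12 genes were lower (41.7%, beside 8.93% of coding genes) and 1 was higher. Wnk1, a kinase that controls sodium chloride transport through Slc12a3, was at 369, 449.8 and 305 CPM with vehicle and 224, 152 and 127 CPM with DHZ (log2FC -1.16, SE 0.29, adjusted p = 0.0176), and Wnk4, a kinase of the same pathway, was lower too (log2FC -0.83). Atp2b1, a calcium pump, was at 132, 167 and 153 CPM with vehicle and 70.3, 79.2 and 87.6 CPM with DHZ (log2FC -0.93, SE 0.23, adjusted p = 0.0164). The exchanger gene Slc8a1 (-0.77) and the magnesium channel gene Trpm6 (-0.75) were lower too, but with total count scaling alone their estimates were 0.01 and 0.06. Trpv5, the apical calcium channel, was the higher one, at 1.14, 2.43 and 2.77 CPM with vehicle and 6.20, 4.12 and 6.92 CPM with DHZ (log2FC 1.45, SE 0.33, adjusted p = 0.0122). The lower genes still called numbered 3 without DHZ replicate 1, 2 without NCD replicates 2 or 3 or vehicle replicate 3, 1 without DHZ replicate 3 and 0 without DHZ replicate 2. Trpv5 (DHZ replicate 1), Wnk1 (DHZ replicates 2 or 3), Wnk4 (any but NCD replicate 1, vehicle replicate 2 and DHZ replicate 1), Slc8a1 (any but NCD replicate 1 and vehicle replicates 1 and 2), Trpm6 (any but NCD replicate 1, vehicle replicate 1 and DHZ replicate 1) and Atp2b1 (DHZ replicates 1 or 2) lost their calls when the libraries in brackets were left out. With total count scaling the list's median went from -0.51 to 0.33 and none of the 5 was called. In the thick ascending limb 2 of 10 markers, Cldn16 (1.24) and Kcnj1 (1.15), were higher and none lower (0 with DESeq2 or limma-voom, 0 at an unadjusted p below 0.05). The 2 higher ones numbered 1 without NCD replicates 2 or 3 or vehicle replicates 2 or 3 and 0 without vehicle replicate 1 or DHZ replicates 1 or 2.

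Genes of the lysosome were among those with the largest rises. Their promoters are shown because the CACGTG box, the core of the element bound by the lysosomal regulator TFEB, is a known mark of this gene group. The windows below run from 250 bases before to 50 bases after the RefSeq gene start (GRCm38.p6), 5′ to 3′ on the gene's strand, with the boxes in capitals. The window of Lamp1, at chr8:13158911-13159210 on the + strand, holds 4 of them and that of Ctsl, at chr13:64370471-64370770 on the - strand, 1.
Lamp1: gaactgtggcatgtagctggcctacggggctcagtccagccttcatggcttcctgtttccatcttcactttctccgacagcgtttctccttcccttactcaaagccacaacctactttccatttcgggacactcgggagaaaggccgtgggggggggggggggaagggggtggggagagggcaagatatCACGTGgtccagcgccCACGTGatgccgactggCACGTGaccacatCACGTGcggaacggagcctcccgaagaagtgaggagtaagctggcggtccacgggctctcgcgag
Ctsl: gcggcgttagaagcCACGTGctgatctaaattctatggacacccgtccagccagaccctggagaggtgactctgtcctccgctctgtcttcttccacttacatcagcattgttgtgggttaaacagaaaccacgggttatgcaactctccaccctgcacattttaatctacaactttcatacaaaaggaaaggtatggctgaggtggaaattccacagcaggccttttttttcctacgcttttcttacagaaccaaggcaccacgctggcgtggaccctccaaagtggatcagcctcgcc
CACGTG reads the same on both strands. It occurred in the windows of 18 of 52 lysosomal genes with a window (34.6%), of 3 of the 14 called higher (21.4%) and of 11.4% of 11243 tested genes.

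Ctsl, the gene of the endopeptidase cathepsin L, was at 26.4, 22.9 and 36.4 CPM with vehicle and 111, 123 and 129.9 CPM with DHZ (log2FC 2.08, SE 0.24, adjusted p = 0.00309), with the NCD libraries at 43.4, 50.7 and 56.4 CPM. Ctsh, a cathepsin that trims peptide ends, was at 12.7, 5.39 and 12.6 CPM with vehicle and 45.2, 54.2 and 31.5 CPM with DHZ (log2FC 2.06, SE 0.36, adjusted p = 0.00509). Asah1, the acid ceramidase, was at 7.91, 9.44 and 7.42 CPM with vehicle and 27.0, 26.4 and 21.2 CPM with DHZ (log2FC 1.60, SE 0.21, adjusted p = 0.00309). In these 3 genes every DHZ library exceeded every vehicle library, which for Ctsl and Ctsh was a condition of their choice. Lgmn, which encodes legumain, the protease that matures cathepsins, rose by a log2FC of 0.97. The abundant Ctsb, a further cathepsin, was not called (0.51, adjusted p = 0.150). In all, 9 of 36 hydrolases were higher (25%) and 1 lower (2.78%), beside 11.5% and 8.93% of coding genes. Their median log2FC was 0.31 (0.14 without vehicle replicate 2 and 0.53 without vehicle replicate 3). Lamp1, the main glycoprotein of the lysosomal membrane, was at 33.3, 37.1 and 45.4 CPM with vehicle and 158, 166 and 132 CPM with DHZ (log2FC 1.98, SE 0.29, adjusted p = 0.00309), against 35.0, 66.1 and 73.0 CPM in the NCD libraries. Lamtor3, a subunit of the Ragulator that holds mTORC1 on lysosomes, was at 3.58, 2.29 and 4.13 CPM with vehicle and 9.32, 10.2 and 7.41 CPM with DHZ (log2FC 1.39, SE 0.28, adjusted p = 0.00748). Scarb2, the receptor that brings glucocerebrosidase to lysosomes, rose by a log2FC of 1.32. Slc17a5, the sialic acid exporter, fell from 127 ± 79.9 CPM to 38.8 ± 9.70 CPM (SD, n = 3; log2FC -1.71, SE 0.44, adjusted p = 0.0196). Of 30 membrane and proton pump genes 8 were higher (26.7%) and 1 lower (3.33%), with a median of 0.40. Hydrolases still called higher numbered 4 without DHZ replicate 1. Membrane genes numbered 5 without vehicle replicate 1 and 2 without DHZ replicates 1 or 2. Scarb2 (DHZ replicates 1 or 2) and Slc17a5 (vehicle replicate 2 or DHZ replicates 1 or 2) lost their calls when the libraries in brackets were left out. The autophagy list had 4 of 28 genes higher (14.3%) and 3 lower (10.7%), close to the 11.5% and 8.93% of coding genes. Its 4 higher genes numbered 2 without vehicle replicate 2 or DHZ replicate 2 and 1 without DHZ replicate 1. Its 3 lower genes numbered 1 without vehicle replicate 3 and 0 without DHZ replicates 1 or 2.

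Several genes that bring proteins into the endoplasmic reticulum (ER) and fold them there rose as well. Spcs1, a subunit of the signal peptidase, was at 1.68, 1.08 and 2.01 CPM with vehicle and 8.82, 8.98 and 6.11 CPM with DHZ (log2FC 2.26, SE 0.28, adjusted p = 0.00309). Spcs3, another subunit of it, was at 5.26, 6.34 and 6.14 CPM with vehicle and 16.7, 19.0 and 12.9 CPM with DHZ (log2FC 1.46, SE 0.25, adjusted p = 0.00505). Ssr3, of the translocon-associated complex, rose from 22.7 ± 3.45 CPM to 60.1 ± 10.7 CPM (SD, n = 3). None of these 3 genes overlapped between the groups. Genes of the signal recognition particle, which delivers nascent chains, went both ways. The subunit gene Srp54a, which has near-identical copies so that its value is uncertain, was higher (log2FC 0.88), a call lost without DHZ replicates 1 or 2. The receptor gene Srpr was at 71.2, 70.0 and 76.7 CPM with vehicle and 26.8, 33.5 and 31.8 CPM with DHZ (log2FC -1.24, SE 0.21, adjusted p = 0.00466), and Srp72, of the particle, was lower too (log2FC -1.16). In all 9 of 29 genes of the translocation list were higher and 3 lower. Ero1l, the oxidase that drives disulphide formation, was at 3.69, 2.83 and 3.45 CPM with vehicle and 11.4, 11.3 and 9.42 CPM with DHZ (log2FC 1.67, SE 0.24, adjusted p = 0.00309). Hspa5, the chaperone BiP, was at 60.4, 44.6 and 64.0 CPM with vehicle and 108, 181 and 101 CPM with DHZ (log2FC 1.20, SE 0.27, adjusted p = 0.0109). The co-chaperone Dnajb9 (1.34) and the isomerase Pdia6 (1.28) rose too, as did the stress-induced Asns (2.35) and Trib3 (2.53). That made 7 of 24 folding and unfolded protein genes higher and none lower (0 with DESeq2 or limma-voom, 1 at an unadjusted p below 0.05), with a median of 0.52. The higher genes still called numbered 5 without vehicle replicates 1 or 2 and 3 without DHZ replicates 1 or 2 for translocation, and the 3 lower ones 1 without DHZ replicates 1 or 2. They numbered 3 without DHZ replicate 2 for folding. Srp72 (DHZ replicates 1 or 2), Hspa5 (DHZ replicate 2), Asns (DHZ replicate 2) and Trib3 (vehicle replicate 3 or DHZ replicate 2) lost their calls when the libraries in brackets were left out. Among 16 cytosolic heat shock genes there were none higher (1 with DESeq2, 0 with limma-voom, 1 at an unadjusted p below 0.05). Hsp90ab1, the constitutive HSP90, was lower (log2FC -1.71, SE 0.47, adjusted p = 0.0239), a call lost without vehicle replicate 2 or DHZ replicates 1 or 2.

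Protein synthesis genes were called higher more often than lower, though the translation list held both. Eef1a1, the factor that brings transfer RNA to the ribosome, was at 278, 103 and 276 CPM with vehicle and 824, 998 and 577 CPM with DHZ (log2FC 1.87, SE 0.40, adjusted p = 0.00979). Eif5b, a factor that joins the ribosomal subunits, was at 438, 1012 and 528 CPM with vehicle and 158, 179.6 and 232 CPM with DHZ (log2FC -1.80, SE 0.38, adjusted p = 0.00939), a call lost without DHZ replicate 1. The groups did not overlap in either, which for Eef1a1 was a condition of its choice. The translation list had 11 of 26 genes higher (42.3%) and 4 lower (15.4%), beside 11.5% and 8.93% of coding genes. Cytosolic ribosomal proteins had 14 of 45 higher and none lower (0 with DESeq2 or limma-voom, 0 at an unadjusted p below 0.05). Rpl3, of the large subunit, was at 40.3, 34.3 and 38.2 CPM with vehicle and 113, 121 and 73.3 CPM with DHZ (log2FC 1.44, SE 0.26, adjusted p = 0.00559), and Rps7, of the small one, rose too (1.19). In this list 41 of 45 estimates were positive, with a median of 0.53 that was -0.07 with a term for the Malat1 share. For the translation list the median went from 0.42 to 0.07 with that term. Ribosomal protein genes have many near-identical processed copies, and the labels do not say how such reads were shared out. The proteasome had 8 of 32 higher, led by Psmd13 (2.14), and 5 lower, among them Psmc1 (-1.39). Translation genes still called higher numbered 7 without vehicle replicate 1, 4 without DHZ replicate 1 and 3 without DHZ replicate 2, and the 4 lower ones 2 without vehicle replicate 2, 1 without DHZ replicate 2 and 0 without DHZ replicate 1. Ribosomal genes numbered 9 without NCD replicate 2 or vehicle replicate 1, 8 without vehicle replicate 2 and 3 without DHZ replicates 1 or 2, and proteasome genes 5 without vehicle replicates 1 or 2, 4 without DHZ replicate 1 and 3 without DHZ replicate 2. The 5 lower proteasome genes numbered 2 without vehicle replicates 2 or 3 or DHZ replicate 3 and 0 without DHZ replicates 1 or 2. Psmc1 lost its call without DHZ replicates 1 or 2.

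Nuclear genes for mitochondrial fuel use were higher more often than lower. Mdh1, the cytosolic malate dehydrogenase of the malate shuttle, was at 48.0, 41.4 and 63.1 CPM with vehicle and 219, 227 and 164 CPM with DHZ (log2FC 2.00, SE 0.26, adjusted p = 0.00309), above the NCD libraries at 52.4, 74.2 and 67.3 CPM. Sucla2 (1.27) and Suclg1 (1.24), subunits of succinyl-CoA ligase, rose as well. The citric acid cycle list had 7 of 21 higher and 1 lower. Cox5a, a subunit of cytochrome c oxidase, rose from 9.06 ± 3.65 CPM to 37.9 ± 9.11 CPM (SD, n = 3; log2FC 2.04, SE 0.40, adjusted p = 0.00736). Atp5f1, of the ATP synthase, rose from 33.5 ± 4.06 CPM to 122 ± 32.7 CPM (SD, n = 3; adjusted p = 0.00309). No DHZ value of either gene reached down to the vehicle values, which for Cox5a was a condition of its choice. Of 41 nuclear genes of oxidative phosphorylation 9 were higher (22%) and 2 lower (4.88%), beside 11.5% and 8.93% of coding genes. Their median log2FC was 0.46, and with a term for the Malat1 share it was -0.27. For the citric acid cycle list it went from 0.50 to 0.02 with that term. All 13 tested protein genes of the mitochondrial genome had negative estimates with a median of -1.42, which was -0.62 without vehicle replicate 2 and 1.08 with a term for the Malat1 share. Of these mt-Nd6 was called (log2FC -1.26, SE 0.39, adjusted p = 0.0371), while DESeq2 called 6, limma-voom 1, and 6 had an unadjusted p below 0.05. The call of mt-Nd6 was lost in 7 of the 9 leave-one-out fits.

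Fatty acid oxidation followed the same lean, with 8 of 29 genes higher and 2 lower. Its median was 0.50, and 0.29 with a term for the Malat1 share. Ehhadh, the peroxisomal bifunctional enzyme, was at 14.1, 18.2 and 24.4 CPM with vehicle and 83.9, 93.9 and 44.0 CPM with DHZ (log2FC 1.97, SE 0.31, adjusted p = 0.00395). Cpt1a, the carnitine transferase that admits long-chain fatty acids to mitochondria, was at 22.7, 32.6 and 30.7 CPM with vehicle and 64.7, 61.5 and 61.1 CPM with DHZ (log2FC 1.13, SE 0.20, adjusted p = 0.00576). Etfdh, which passes electrons from the oxidation to ubiquinone, rose from 8.05 ± 1.76 CPM to 22.5 ± 3.31 CPM (SD, n = 3). Etfb, which feeds it, was at 44.5, 79.4 and 45.7 CPM with vehicle and 16.8, 21.7 and 18.3 CPM with DHZ (log2FC -1.57, SE 0.27, adjusted p = 0.00508). Acaa2, the thiolase of the last step, rose by 1.40 on the log2 scale. None of these 5 genes overlapped between the groups, which for Ehhadh was a condition of its choice. Glycolysis had 5 of 19 genes higher and none lower (1 with DESeq2, 0 with limma-voom, 1 at an unadjusted p below 0.05), led by Pgk1 (1.42) and Tpi1 (1.44). The list for gluconeogenesis and ammonia production had 5 of 15 higher and none lower (1 with DESeq2, 0 with limma-voom, 1 at an unadjusted p below 0.05). In it Fbp1, the fructose bisphosphatase of proximal tubule gluconeogenesis, was at 14.8, 7.42 and 17.6 CPM with vehicle and 47.8, 54.9 and 33.5 CPM with DHZ (log2FC 1.76, SE 0.31, adjusted p = 0.00559). Glud1, which releases ammonia from glutamate, rose from 64.8 ± 8.00 CPM to 178 ± 35.0 CPM (SD, n = 3). With a term for the Malat1 share the glycolysis median went from 0.54 to -0.18 and that of gluconeogenesis from 0.46 to 0.31. The higher genes still called in the citric acid cycle numbered 4 without DHZ replicate 2 and 3 without DHZ replicate 1. In oxidative phosphorylation they numbered 4 without DHZ replicate 2 and 3 without DHZ replicate 1, and in fatty acid oxidation 5 without vehicle replicate 2 and 4 without DHZ replicates 1 or 2. The 2 lower genes of oxidative phosphorylation numbered 1 without vehicle replicate 3 or DHZ replicates 2 or 3 and 0 without DHZ replicate 1, and those of fatty acid oxidation 1 without vehicle replicate 3 or DHZ replicates 1 or 2. In glycolysis the higher genes numbered 3 without vehicle replicate 2 and 2 without DHZ replicates 1 or 2, and in gluconeogenesis 3 without DHZ replicates 1 or 2.

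Regulators of energy sensing were mixed, with 3 of 21 genes of the AMPK and sirtuin list higher and 3 lower, beside 11.5% and 8.93% of coding genes. Prkaa2, the catalytic alpha subunit of AMPK found in kidney and muscle, was at 9.60, 11.6 and 10.6 CPM with vehicle and 24.3, 25.5 and 18.8 CPM with DHZ (log2FC 1.11, SE 0.20, adjusted p = 0.00557). Sirt1, a nuclear deacetylase, rose by 0.88 on the log2 scale. Ppargc1b, a coactivator of mitochondrial genes, was at 34.3, 18.1 and 25.6 CPM with vehicle and 8.94, 8.87 and 11.7 CPM with DHZ (log2FC -1.41, SE 0.26, adjusted p = 0.00591). Camkk2, a kinase upstream of AMPK, fell by 1.23 and Sirt3, the mitochondrial deacetylase, fell by 1.06 on that scale. The groups were apart in all 5 genes, and the call of Sirt3 was lost without DHZ replicates 1 or 2.

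Antioxidant genes were called higher more often than lower. NRF2, encoded by Nfe2l2, drives these genes when KEAP1 releases it. Nfe2l2 itself was at 15.6, 21.7 and 16.1 CPM with vehicle and 40.3, 39.2 and 28.1 CPM with DHZ (log2FC 1.02, SE 0.22, adjusted p = 0.0104), a call lost without DHZ replicate 1. Keap1 was at 21.0, 17.4 and 28.2 CPM with vehicle and 9.99, 14.5 and 14.5 CPM with DHZ (log2FC -0.78, SE 0.24, adjusted p = 0.0364). Gsta2, a glutathione transferase, was at 65.5, 49.0 and 101 CPM with vehicle and 229, 244 and 178 CPM with DHZ (log2FC 1.60, SE 0.32, adjusted p = 0.00737). Hmox1, the heme oxygenase gene, was at 0.596, 0.944 and 3.09 CPM with vehicle and 2.03, 7.77 and 13.2 CPM with DHZ (log2FC 2.21, SE 0.70, adjusted p = 0.0470), and its groups overlapped. Of 26 genes in the list 8 were higher and 2 lower, with a median of 0.70. The higher ones still called numbered 5 without NCD replicate 1, 3 without vehicle replicate 1 and 2 without NCD replicates 2 or 3, vehicle replicate 2 or DHZ replicates 1, 2 or 3. The 2 lower ones numbered 1 without vehicle replicates 1 or 2 and 0 without NCD replicates 2 or 3, vehicle replicate 3 or DHZ replicates 1, 2 or 3. Keap1 (any but NCD replicate 1 and vehicle replicate 2) and Hmox1 (any but vehicle replicate 3 and DHZ replicate 1) lost their calls when the libraries in brackets were left out, while Gsta2 was called in all 9 such fits. Among superoxide and peroxide enzymes 6 of 20 were higher and none lower (1 with DESeq2, 0 with limma-voom, 1 at an unadjusted p below 0.05). The higher ones numbered 3 without vehicle replicates 1 or 3 and 1 without DHZ replicates 1 or 2. Gpx1, the glutathione peroxidase that many cells express, was at 28.2, 31.7 and 62.5 CPM with vehicle and 119, 118 and 119 CPM with DHZ (log2FC 1.54, SE 0.30, adjusted p = 0.00697), with NCD libraries at 94.9, 70.2 and 73.7 CPM. The DHZ values were close to each other and above all others. Nox4, the main superoxide and peroxide source among kidney oxidases, rose too (1.12), a call lost without vehicle replicates 1 or 3 or DHZ replicates 1 or 2.

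In the NF-kB pathway list 2 of 25 genes were higher and 2 lower, shares of 8% each that are close to those of all coding genes (11.5% and 8.93%). DESeq2 called 5 higher and 2 lower, limma-voom 2 and 2, and 7 and 2 had an unadjusted p below 0.05. Nfkbia, the inhibitor and a classical target of NF-kB, was at 50.3, 65.7 and 49.2 CPM with vehicle and 15.4, 20.6 and 27.6 CPM with DHZ (log2FC -1.37, SE 0.26, adjusted p = 0.00665), and the NCD libraries at 48.3, 31.1 and 39.7 CPM. Nfkb1, a subunit, fell by 0.96 on the log2 scale. Both were low in all 3 DHZ libraries. Traf6 (0.81) and Ikbkg (0.73), which pass receptor signals to the pathway, were higher. Of 17 cytokine, chemokine and adhesion genes 3 were higher and none lower (0 with DESeq2 or limma-voom, 0 at an unadjusted p below 0.05). The 3 numbered 1 without NCD replicates 2 or 3, vehicle replicate 1 or DHZ replicates 1, 2 or 3 and 0 without vehicle replicates 2 or 3. NF-kB genes still called higher numbered 1 without NCD replicate 3 or vehicle replicate 3 and 0 without NCD replicate 2, vehicle replicate 1 or DHZ replicates 1, 2 or 3, and lower 1 without DHZ replicates 1 or 2. Vcam1, an adhesion molecule of activated endothelium and injured tubule, was 1 of the 3 higher cytokine, chemokine and adhesion genes (1.87). Nfkb1 (DHZ replicates 1 or 2), Traf6 (any but NCD replicates 1 and 3 and vehicle replicate 2), Ikbkg (any but NCD replicate 1 and vehicle replicates 2 and 3) and Vcam1 (any but DHZ replicates 1 and 2) lost their calls when the libraries in brackets were left out.

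Complement and coagulation genes were called higher more often than lower, 7 of 24 against 1, with a median of 0.92. These shares are 29.2% and 4.17%, beside 11.5% and 8.93% of coding genes. C3, the central complement component, was at 9.60, 4.18 and 4.78 CPM with vehicle and 19.2, 16.5 and 52.1 CPM with DHZ (log2FC 2.22, SE 0.48, adjusted p = 0.0112), and the NCD libraries at 3.58, 4.99 and 6.90 CPM. Fga, a fibrinogen chain that injured tubules also make, was at 2.76, 2.02 and 3.05 CPM with vehicle and 6.79, 15.2 and 20.6 CPM with DHZ (log2FC 2.41, SE 0.36, adjusted p = 0.00313). Cfi, the protease that inactivates C3b, was at 0.488, 0.539 and 0.241 CPM with vehicle and 1.97, 1.71 and 5.52 CPM with DHZ (log2FC 2.95, SE 0.55, adjusted p = 0.00643). F3, tissue factor, rose by 1.35 on the log2 scale. The vehicle libraries were below all DHZ libraries in each of the 4, which for C3 was a condition of its choice. Among 13 macrophage markers 3 were higher and 1 lower. C1qb, a chain of C1q, which kidney macrophages make, was at 2.82, 1.08 and 1.48 CPM with vehicle and 4.70, 4.94 and 7.30 CPM with DHZ (log2FC 1.60, SE 0.34, adjusted p = 0.00955), and C1qc (1.28) and C1qa (1.86) rose with it. Csf1r, the growth factor receptor of macrophages, was at 33.0, 14.4 and 16.7 CPM with vehicle and 10.7, 11.6 and 7.88 CPM with DHZ (log2FC -1.09, SE 0.31, adjusted p = 0.0275). The marker list summed to 30.2 to 63.0 CPM with vehicle and 49.2 to 65.7 CPM with DHZ, so the groups overlapped. Of 13 MHC genes 3, all of class II antigen presentation, were higher and none lower (0 with DESeq2 or limma-voom, 0 at an unadjusted p below 0.05). H2-Eb1 rose from 8.79 ± 3.40 CPM to 27.5 ± 10.2 CPM (SD, n = 3) and H2-Aa by 1.30 on the log2 scale. C1qa (vehicle replicate 3 or DHZ replicates 1, 2 or 3) and Csf1r (vehicle replicate 1 or DHZ replicates 1, 2 or 3) lost their calls when the libraries in brackets were left out.

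Matrix genes that accumulate in fibrosis were higher more often than lower, 6 of 25 against 1. These shares are 24% and 4%, beside 11.5% and 8.93% of coding genes. Col3a1, the fibrillar collagen III, was at 6.23, 9.85 and 6.34 CPM with vehicle and 18.3, 12.6 and 46.2 CPM with DHZ (log2FC 1.80, SE 0.41, adjusted p = 0.0123). Fn1, fibronectin, was at 2.55, 2.70 and 2.57 CPM with vehicle and 5.47, 6.12 and 9.25 CPM with DHZ (log2FC 1.42, SE 0.30, adjusted p = 0.00944). Bgn, the proteoglycan biglycan, rose by 1.05 on the log2 scale. Loxl2, a collagen crosslinker, was the lower one, at 7.32, 6.34 and 11.2 CPM with vehicle and 4.47, 3.39 and 4.04 CPM with DHZ (log2FC -1.08, SE 0.25, adjusted p = 0.0127). None of the 4 overlapped between the groups. In the TGF-beta list, 6 of 23 genes were higher and none lower (1 with DESeq2, 0 with limma-voom, 1 at an unadjusted p below 0.05). Tgfbi, a matrix protein induced by TGF-beta, was at 1.57, 0.270 and 0.963 CPM with vehicle and 4.41, 3.52 and 7.79 CPM with DHZ (log2FC 2.35, SE 0.50, adjusted p = 0.00920). Skil, a repressor of SMADs, rose by 1.88 and Tgfbr2, the receptor, by 1.03 on the log2 scale. Ccn2, connective tissue growth factor, rose by 0.78. Fibrosis genes still called higher numbered 3 without vehicle replicate 3 or DHZ replicate 2 and 2 without DHZ replicate 1. TGF-beta genes numbered 3 without vehicle replicate 3 or DHZ replicate 2. Bgn (vehicle replicate 3 or DHZ replicate 1), Loxl2 (DHZ replicate 2) and Ccn2 (vehicle replicate 3 or DHZ replicates 1, 2 or 3) lost their calls when the libraries in brackets were left out. Of 10 fibroblast markers Col3a1 alone was called (10%, beside 11.5% of coding genes called higher). The 10 markers, Col3a1 included, summed to 66.3 to 85.1 CPM with vehicle and to 87.6 to 158 CPM with DHZ. The nearest libraries were vehicle replicate 1, at 85.1 CPM with 6.23 from Col3a1, and DHZ replicate 2, at 87.6 CPM with 12.6 from Col3a1. The separation of the sums thus rests on Col3a1. The part of fibroblast content in the matrix counts was not tested.

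Of 21 markers of tubular injury 4 were higher (19%) and 2 lower (9.52%), beside 11.5% and 8.93% of coding genes. The lower share is thus close to that of coding genes. Spp1, osteopontin, was at 164, 243 and 137 CPM with vehicle and 440.1, 444 and 1921 CPM with DHZ (log2FC 2.37, SE 0.59, adjusted p = 0.0170). Sox9, a transcription factor of tubular repair, was at 14.0, 9.98 and 19.3 CPM with vehicle and 6.26, 6.19 and 5.55 CPM with DHZ (log2FC -1.28, SE 0.28, adjusted p = 0.0101). Cd24a, a marker of repairing tubule cells, was higher (1.78) and Pax2, a developmental factor seen again after injury, lower (-1.10). In these 4 genes the groups did not overlap, and Spp1 (vehicle replicate 1), Cd24a (DHZ replicates 1 or 2) and Pax2 (vehicle replicate 1 or DHZ replicates 1 or 2) lost their calls when the libraries in brackets were left out. Cell cycle genes had 8 of 27 higher and 1 lower, with a median of 1.01 that was 0.29 without DHZ replicate 3. Pcna, the DNA polymerase clamp, was at 4.82, 3.91 and 4.78 CPM with vehicle and 12.0, 15.5 and 12.6 CPM with DHZ (log2FC 1.56, SE 0.22, adjusted p = 0.00309). Cdk2, a kinase of the S phase, was at 1.46, 1.35 and 1.52 CPM with vehicle and 3.59, 2.92 and 3.40 CPM with DHZ (log2FC 1.17, SE 0.28, adjusted p = 0.0139). Of 24 genes of the p53 list 5 were higher (20.8%) and 1 lower (4.17%), led by Ccng1 (1.26) and Pmaip1 (1.72). Injury markers still called higher numbered 2 without vehicle replicate 3 or DHZ replicate 2 and 1 without vehicle replicate 1, and lower 1 without vehicle replicate 1 or DHZ replicates 1 or 2. Cell cycle genes still called higher numbered 5 without vehicle replicates 1 or 3 or DHZ replicate 3, 3 without DHZ replicate 2 and 2 without DHZ replicate 1. Those of the p53 list numbered 3 without DHZ replicates 1 or 2. Cdk2 lost its call without DHZ replicate 1.

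Splicing factors were called lower more often than higher. Among 30 splicing factors 9 were lower and 1 higher, with a median of -0.59 (-0.30 without vehicle replicate 2). The 30% lower stands beside 8.93% of coding genes and 24.5% of abundant coding genes. Srsf11, Luc7l3 and Rbm25 are abundant, and the share of the list is near that of abundant coding genes. Srsf11, a serine and arginine rich factor, was at 428, 971 and 490.2 CPM with vehicle and 123, 117 and 160.3 CPM with DHZ (log2FC -2.24, SE 0.44, adjusted p = 0.00696), and the NCD libraries at 673, 312 and 247 CPM. Luc7l3, of the U1 particle, was at 389, 737 and 396 CPM with vehicle and 114, 135 and 148 CPM with DHZ (log2FC -1.94, SE 0.38, adjusted p = 0.00705). Rbm25, which steers splice site choice, was at 544, 1341 and 617 CPM with vehicle and 187, 196 and 255 CPM with DHZ (log2FC -1.97, SE 0.43, adjusted p = 0.0105). Acin1 fell by 1.42 on the log2 scale. Vehicle replicate 2 was the highest library in the first 3 of these genes. The groups did not overlap, which for Srsf11 was a condition of its choice. Srsf3, which also exports messenger RNA, was the higher one, from 21.1 ± 2.18 CPM to 39.5 ± 0.385 CPM (SD, n = 3). Of 12 nuclear non-coding RNAs 4 were lower and 1 higher, with 6 positive estimates and a median of -0.02. The 4 lower ones numbered 2 without vehicle replicate 2 or DHZ replicate 1 and 1 without DHZ replicate 2, and the higher one 0 without DHZ replicates 1 or 2. Malat1, the nuclear RNA of splicing speckles, fell (log2FC -2.26, SE 0.64, adjusted p = 0.0280). Kcnq1ot1, an imprinted nuclear RNA, was at 346, 770.4 and 265 CPM with vehicle and 119.7, 103 and 142 CPM with DHZ (log2FC -1.92, SE 0.39, adjusted p = 0.00815). With total count scaling the median of the splicing list was 0.31 and none of the 9 was called lower. With a term for the Malat1 share it was 0.05. Of the 9, those still called numbered 3 without DHZ replicates 1 or 2. Rbm25 (DHZ replicates 1 or 2) and Malat1 (vehicle replicate 2 or DHZ replicates 1, 2 or 3) lost their calls when the libraries in brackets were left out.

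The falls named for their size included genes of transcription factors and RNA-binding proteins. Arrdc2, an arrestin-like protein, fell most, at 9.60, 19.6 and 28.3 CPM with vehicle and 2.18, 1.90 and 3.05 CPM with DHZ (log2FC -3.02, SE 0.44, adjusted p = 0.00309). Pnisr, a speckle protein, fell from 488 ± 276 CPM to 103 ± 20.6 CPM (SD, n = 3). Ankrd12, which binds nuclear corepressors, fell by 2.21 and Upf3b, a factor of nonsense-mediated decay, fell by 2.09 on the log2 scale. Nfix was at 40.6, 24.8 and 31.5 CPM with vehicle and 7.70, 7.17 and 6.86 CPM with DHZ (log2FC -2.16, SE 0.26, adjusted p = 0.00309). Nfic, of the same family of nuclear factor I proteins, fell by 2.09. Of 29 tested Hox genes, transcription factors of positional identity, 14 were lower and none higher (0 with DESeq2, 0 with limma-voom and 0 at an unadjusted p below 0.05), with a median of -0.75 that was 0.03 with total count scaling, under which none was called lower. The 14 lower ones numbered 9 without DHZ replicate 1 and 8 without DHZ replicate 2. This family was picked after its values were seen. Hoxb4 was at 114, 90.5 and 93.1 CPM with vehicle and 18.2, 23.4 and 23.0 CPM with DHZ (log2FC -2.20, SE 0.28, adjusted p = 0.00309). Hoxd4 fell by 2.20 and Hoxc9 fell by 2.24. The DHZ values of these 9 genes lay below all vehicle values, which the rule that named them requires. Acvr2b, an activin receptor, fell by 2.17 on the log2 scale. These genes were named by a rule that asks for no overlap between the groups and for a call in all 9 leave-one-out fits. The condition on the fits was met by 186 of 332 higher and 196 of 453 lower candidates.

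The same rule named further rises outside the groups above. Emp1, an epithelial membrane protein, was at 6.23, 3.24 and 3.85 CPM with vehicle and 25.7, 26.3 and 11.9 CPM with DHZ (log2FC 2.24, SE 0.35, adjusted p = 0.00392). Slc16a4, of the monocarboxylate carrier family, was at 10.0, 10.7 and 8.67 CPM with vehicle and 62.5, 53.6 and 16.9 CPM with DHZ (log2FC 2.19, SE 0.48, adjusted p = 0.0118). Rnf130, a ubiquitin ligase, rose from 4.58 ± 0.135 CPM to 19.0 ± 5.55 CPM (SD, n = 3). Cldn12, a claudin, rose by 1.99 and Nxt2, a factor of messenger RNA export, by 1.94 on the log2 scale. All 5 were apart between the groups, which that rule requires. In the actin list 7 of 29 genes were higher and 3 lower. The small GTPases Rhoa (1.12) and Cdc42 (0.95), switches of the cytoskeleton, rose, and so did Actg1 (1.79), the cytoplasmic gamma actin. Tln1, which links integrins to actin, was at 114, 153 and 109.7 CPM with vehicle and 37.2, 37.6 and 50.3 CPM with DHZ (log2FC -1.59, SE 0.33, adjusted p = 0.00883), and Rdx, which ties actin to the membrane, fell by 1.49. Genes of cell junctions had 6 of 19 higher and 1 lower. In the renin-angiotensin list 4 of 16 were higher (25%) and 1 lower (6.25%), beside 11.5% and 8.93% of coding genes. Ren1, renin, was at 1.68, 1.21 and 2.01 CPM with vehicle and 5.70, 4.26 and 4.04 CPM with DHZ (log2FC 1.47, SE 0.34, adjusted p = 0.0134). The angiotensin receptor gene Agtr1a rose by 1.04, and Agt, the precursor, fell by 0.89. Junction genes still called higher numbered 2 without vehicle replicate 3 or DHZ replicate 1 and 1 without DHZ replicate 2, and actin genes 4 without vehicle replicate 1, 3 without DHZ replicate 1 and 2 without DHZ replicate 2. The 3 lower actin genes numbered 1 without DHZ replicate 1. Renin-angiotensin genes numbered 2 without vehicle replicate 1, 1 without DHZ replicate 2 and 0 without DHZ replicate 1. Actg1 (DHZ replicate 2), Rdx (DHZ replicate 1), Ren1 (DHZ replicate 1), Agtr1a (DHZ replicates 1 or 2) and Agt (vehicle replicate 3 or DHZ replicates 1 or 3) lost their calls when the libraries in brackets were left out.

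**Figure D4:**
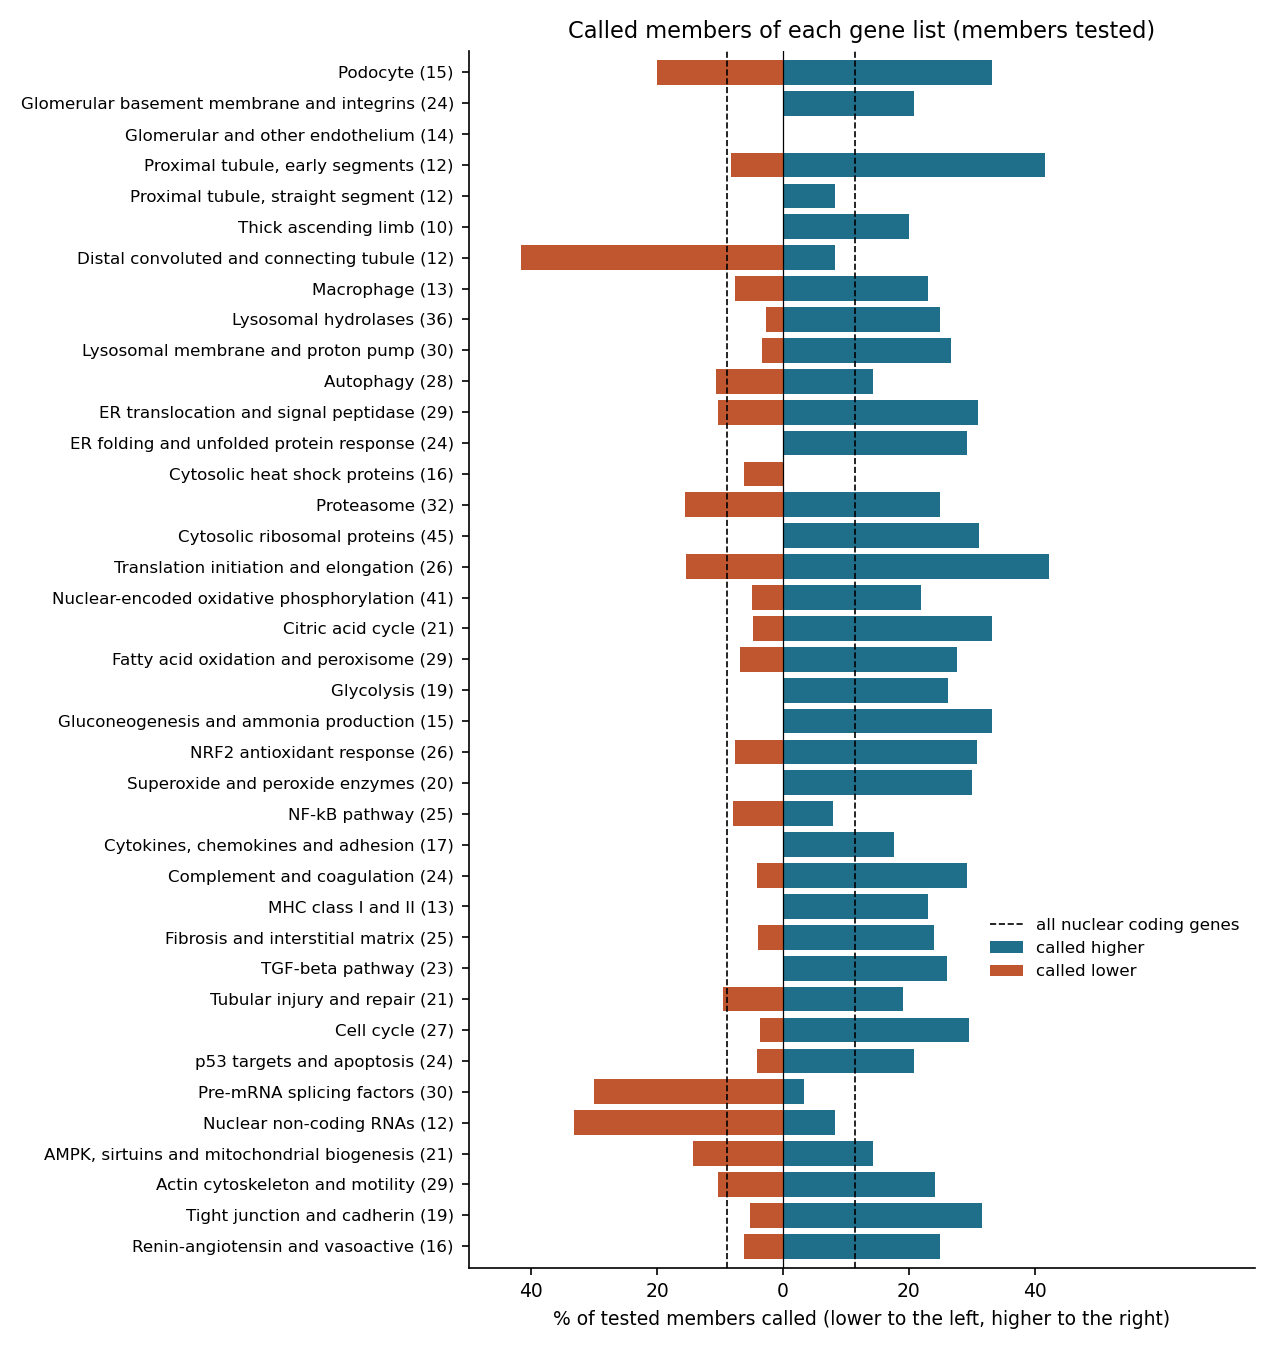
Percent of the tested members of 39 gene lists called higher (right) and lower (left) with DHZ, with the number tested in brackets. Dashed lines mark the shares over all nuclear coding genes, 11.5% higher and 8.93% lower. Among abundant coding genes 24.5% were lower. The splicing and distal tubule lists are those with 30% or more of members lower besides the nuclear non-coding RNAs at 33.3%.

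How many genes were called depended on which libraries and terms entered the fit. It ran from 1149 to 4086 over the fits without 1 library, and in none of those fits was a gene called in the opposite direction. In 40 gene lists, the mitochondrial genome included, 13 held a single lower gene and 4 a single higher one, and 13 and 3 of these calls were lost without at least 1 library. The term for the Malat1 share moved it to 3, and 323 of the 3796 estimates of called genes then had the opposite sign.

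**Figure D5:**
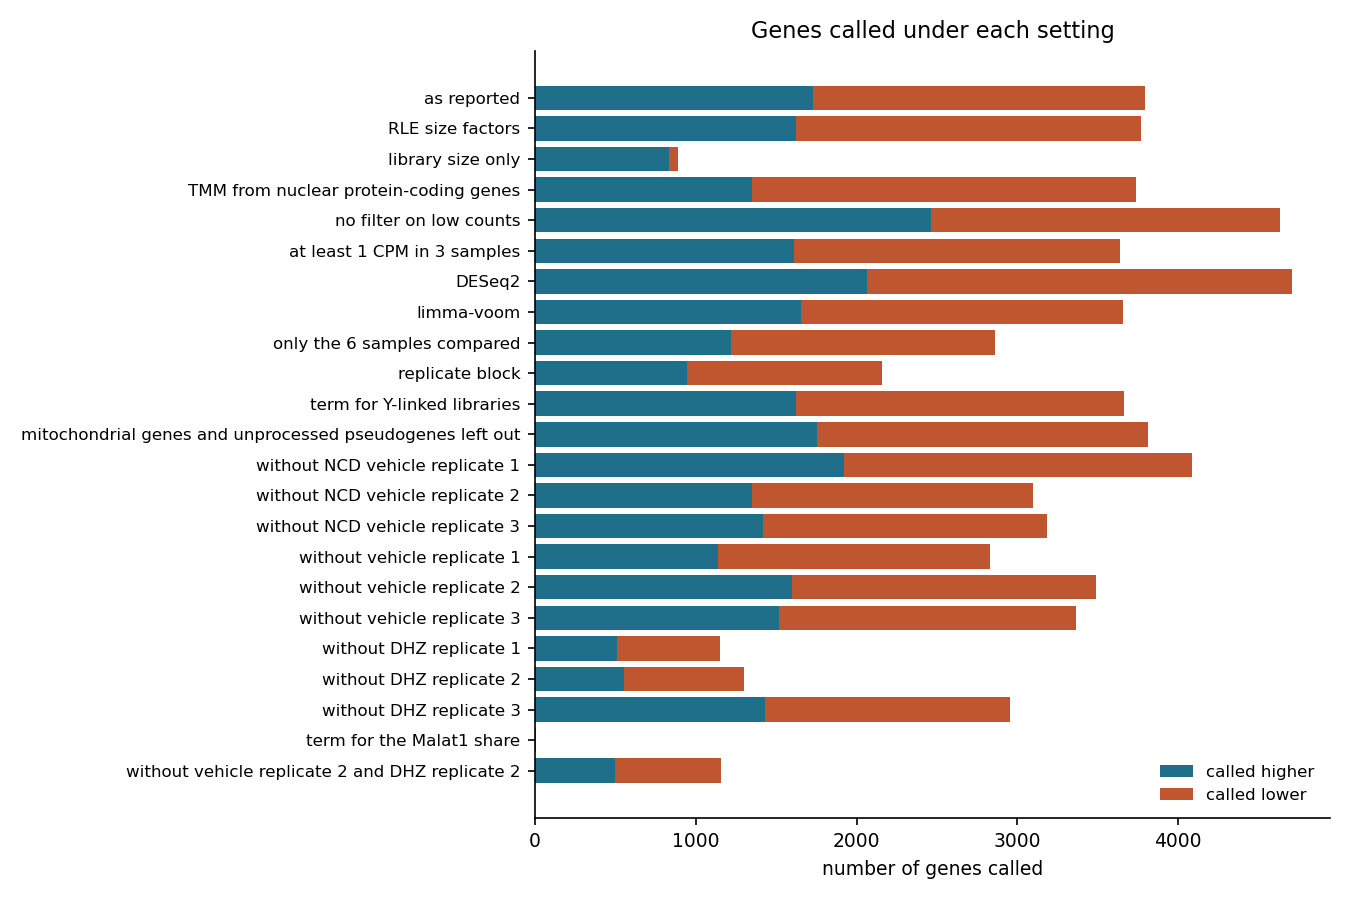
Number of genes called higher and lower under each setting, as stacked bars from 0. The fits without DHZ replicate 1 or 2 give 1149 and 1302 genes, scaling by total count gives 888, nearly all higher, and the fit with a term for the Malat1 share gives 3.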

How the data were processed

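Raw counts per gene, whole numbers as deposited, cover 55359 mouse Ensembl genes. Reads were handled with STAR, Trim Galore and FastQC on build GRCm39, per the submitters' processing notes. The counting program, its strand setting and the annotation were not stated, so near-identical copies and overlapping or antisense genes are uncertain. Symbols matched 94.1% of the deposited count rows.

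Using R 4.3.3 and edgeR 4.0.16, filterByExpr kept 17179 genes, TMM scaled library sizes, and all 9 libraries entered 1 robust quasi-likelihood fit by group (6 residual degrees of freedom). P-values were adjusted by Benjamini-Hochberg over all genes and called below 0.05, two-sided. Standard errors come from the F statistic. Library measures used exact permutation tests. The fit was also run on simulated counts with known fold changes and the same dispersion for all genes. These held no outlying library, so they do not show how the fit handles vehicle replicate 2 or the Malat1 share.

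Gene lists, 61 in all, and members were chosen with earlier results of these data known. Named genes are protein-coding with mean log2 CPM of at least 3, no overlap, 2-fold change and calls in all 9 leave-one-out fits (15 largest each way), up to 6 called and 3 uncalled genes per list, and library checks such as Malat1. For the 15 largest each way, no overlap and the calls in all 9 fits are conditions of the choice, not results. Apoc3, Cdh11 and Gm48114 were chosen after their values were seen. Some named genes are not reported here. Alternatives used DESeq2 1.42.0, limma 3.58.1, other scalings, filters, terms and leave-outs. Total counts were 15.1 to 47.5 M per library.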

Additional observations from a re-analysis of the deposited data

How the results depend on the processing

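Depth limits genes with few counts most in vehicle replicate 2, with 2.13 M coding counts. No called gene was called in the opposite direction under any alternative run. Scaled by total count alone, 888 genes were called, 832 higher and 56 lower, and Slc8a1 (0.00917), Trpm6 (0.0625) and Col4a3 (0.19) had positive log2 fold changes. Over the fits without 1 library, or without vehicle replicate 2 and DHZ replicate 2 together (added after seeing the data), 1149 to 4086 genes were called, 495 to 1924 higher and 640 to 2162 lower. The lowest totals came without DHZ replicate 1 (1149), with both replicates 2 left out (1155) and without DHZ replicate 2 (1302).

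Same-numbered vehicle and DHZ libraries correlated at 0.33, -0.27 and 0.28 in their deviations from the group means, so the numbers were not taken to pair the libraries. With a replicate block the calls numbered 2159 (947 higher, 1212 lower), and 2152 of these were also called without it.

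A term for the Malat1 share, added after seeing the data, left 3 calls, 1 higher and 2 lower, with 1988 genes at an unadjusted p below 0.05. The sign then turned for Dach1 (0.23), Slc4a4 (0.0323), Ctsb (-0.15), Slc17a5 (0.12), Asns (-0.73), Slc3a1 (-0.52), Kcnj1 (-0.17) and Hsp90ab1 (0.0528). The estimate of Malat1 went to 0.10, but the term is its own share and so largely fixes this value. Medians of the cell junction list (0.56 to -0.13) and the tubular injury list (0.80 to -0.05) turned with this term. Those of complement and coagulation (0.92 to 1.28) and of NRF2 (0.70 to 0.47) stayed positive. The cause of these changes was not tested. The 6 compared libraries alone gave 2860 calls, DESeq2 4707, limma-voom 3658, no filter 4633, at least 1 CPM in 3 libraries 3638, size factors of the RLE method 3768, TMM from coding genes 3735, a term for Y-linked libraries 3660, and leaving out mitochondrial genes and unprocessed pseudogenes 3813.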

Other observations

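Of the immunoglobulin variable genes, a class chosen after its values were seen, 14 of 22 tested were called higher with DHZ. In 20 of 22 the vehicle libraries were below all DHZ libraries, against 20.9% of all genes tested. Genes with so few counts can pass the count filter through the DHZ libraries alone. The filter thus partly fixes these counts, and no conclusion is drawn from setting them beside all genes. The variable genes of the kappa light chain, made by B and plasma cells, summed to 4.17, 1.62 and 4.45 CPM in the vehicle libraries (77, 12 and 111 counts), to 20.4, 39.5 and 20.4 CPM in the DHZ libraries and to 2.03, 12.3 and 11.9 CPM in the NCD libraries. Igkc, their shared constant gene, was at 98.8, 107 and 74.6 CPM with vehicle and 89.1, 141 and 114 CPM with DHZ, which overlap. Per 100 counts of Igkc the variable genes thus had 4.23, 1.51 and 5.97 counts with vehicle, 22.9, 28.0 and 18.0 with DHZ, and 4.06, 8.39 and 8.27 in the NCD libraries.

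Genes called between DHZ and vehicle also varied among the NCD libraries. The 2070 genes called lower with DHZ had median deviations from the NCD mean of 0.30, -0.08 and -0.22 on the log2 scale (pseudocount 0.5 CPM) in NCD replicates 1 to 3, whose Malat1 shares were 14.7%, 6.76% and 5.99%. The 1726 genes called higher had median deviations of -0.21, 0.08 and 0.14, and the genes not called -0.03, 0.02 and 0.01. NCD replicate 1 differed in more than Malat1. Y-linked RNA took 62.1, 0.117 and 0.209 counts per M total counts in NCD replicates 1 to 3, and mitochondrial genes 51.5%, 41.5% and 39.2%. Which of these differences goes with the deviations was not tested. The NCD libraries do not enter the DHZ and vehicle means but share the count filter, the TMM scaling and the dispersion of the fit. With the 6 compared libraries alone 16321 genes were tested.

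Coding genes called higher had a median GC content of 46.3% and those called lower 50.1%, beside 50.7% in genes not called. Their median transcript lengths were 3081, 3754 and 3094 bases.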
